A study of Mus musculus with 6 samples.

Results

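The genes described here bear names of enzymes, binding proteins and transcription factors that make, break down and read the cyclic nucleotides cAMP and cGMP. They were chosen by name alone, as the protein-coding rows of the table whose symbol begins with *Pde*, *Adcy*, *Prkac*, *Prkar*, *Prkg*, *Akap*, *Gucy*, *Rapgef* or *Creb* in numbered or lettered series, together with *Crem*. The rule found 83 of 34461 genes, of which 19008 are protein-coding. It also takes in genes without such a role, among them *Rapgef5*, which does not bind cAMP. RNA was sequenced from ovaries of 7-month-old mice, with 3 libraries from control animals and 3 from animals in which *Trim28*, encoding a co-repressor of transcription, was deleted by *Nr5a1:Cre* (*Trim28 flox/flox*; *Nr5a1:Cre*, called Trim28 cKO, or cKO). Per the study's methods, controls carried *Trim28 flox/flox* without Cre or *Trim28 flox/+* with *Nr5a1:Cre* on a mixed 129SV and C57BL6/J background, and the labels do not say which control library had which genotype. *Nr5a1:Cre* is active in somatic cells of the gonad and not in germ cells, so a whole ovary keeps some unrecombined cells. Since the labels give 3 mice for each genotype, every library was treated as 1 animal.

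In the ovary, gonadotropin receptors act through the stimulatory G protein, which switches on adenylyl cyclases. The cAMP they make releases the catalytic subunits of protein kinase A (PKA) from their regulatory subunits, opens the RAP exchange factors called EPAC, and through PKA leads to phosphorylation of CREB transcription factors. Guanylyl cyclases make cGMP in response to nitric oxide or natriuretic peptides, and cGMP passing from granulosa cells to the oocyte holds the oocyte in meiotic arrest by inhibiting its phosphodiesterase. Phosphodiesterases end both signals, and A-kinase anchoring proteins (AKAPs) hold PKA near its substrates.

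The libraries held 23615580 to 48508461 counts (median 41226315). *Trim28* (chr7:12999114-13031035, mm10) stood at 155, 178 and 155 CPM (counts relative to library size, scaled by TMM) in controls and at 48.8, 55.6 and 71.2 CPM in the cKO, with a log2 fold change of -1.47 (SE 0.15, edgeR adjusted p = 0.000663). Markers of several cell types moved with genotype. All 10 Sertoli markers were higher (summed CPM 837 to 1294 in controls and 4587 to 7722 in Trim28 cKO), as were all 10 macrophage markers (436 to 529 and 2671 to 5054 CPM). Of the oocyte markers 9 of 10 were lower (236 to 480 and 42.5 to 54.0 CPM), as were 7 of 8 corpus luteum markers and 6 of 10 smooth muscle and pericyte markers (1493 to 1886 and 616 to 1147 CPM). Another marker of that list, *Des*, was higher (19.9 ± 3.29 and 58.8 ± 26.1 CPM, SD, n = 3, log2 fold change 1.56, edgeR adjusted p = 0.0122, or 0.0534 with no filter on low counts). Of 10 granulosa markers 5 were lower and none higher. Surface epithelium markers were higher in 6 of 8 and lower in 1 of 8, Leydig and theca markers higher in 4 of 8 and lower in 3 of 8, and some lymphocyte (3 of 9), endothelial (2 of 8) and stromal (2 of 6) markers were higher. No marker of any of the 11 lists was at 0 counts in all libraries. Whether fewer cells of a type or less RNA per cell lie behind any value reported here cannot be told apart in whole ovaries, and the part of these markers in the changes was not tested.

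Of the 83 genes, 71 had enough counts to be tested. A gene was called higher or lower at an adjusted p of at most 0.05 (edgeR, Benjamini-Hochberg over all 18959 genes tested). On this rule 12 members were higher in Trim28 cKO ovaries (16.9% of those tested, against 20.2% of all genes) and 18 were lower (25.4%, against 16.8% of all genes). Of the 15594 protein-coding genes tested, 21.7% were higher and 18.1% lower. Together 30 of 71 were called, where 37% of all genes were. The 3 control and 3 Trim28 cKO values did not overlap for 39 of 71 members (54.9%, against 52.8% of all genes), and 12 of 71 members were called beyond a log2 fold change of 1 (16.9%, against 21.7%). The median log2 fold change of the tested members was -0.099, that of all genes 0.0010. The share called was thus near that of all genes, and the values are given gene by gene. Counts of calls within families and lists below stand beside these same shares of all genes. Of the 30 calls, 13 were kept in every one of the 13 alternative fits in which the gene was tested, and 17 were lost in at least 1. The losses given gene by gene below are mostly those of fits that left out 1 library. With every library, 27 calls were kept with limma-voom, 25 with no filter on low counts and 17 with a replicate block. The count of higher members was 7 without control library 1, control library 3 or Trim28 cKO library 2. That of lower members was 7 without control library 1, 9 without control library 2 and 11 without Trim28 cKO library 2. Calls over all genes fell too, from 3832 higher and 3189 lower to 2801 and 2039 without control library 1.

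**Figure D1:**
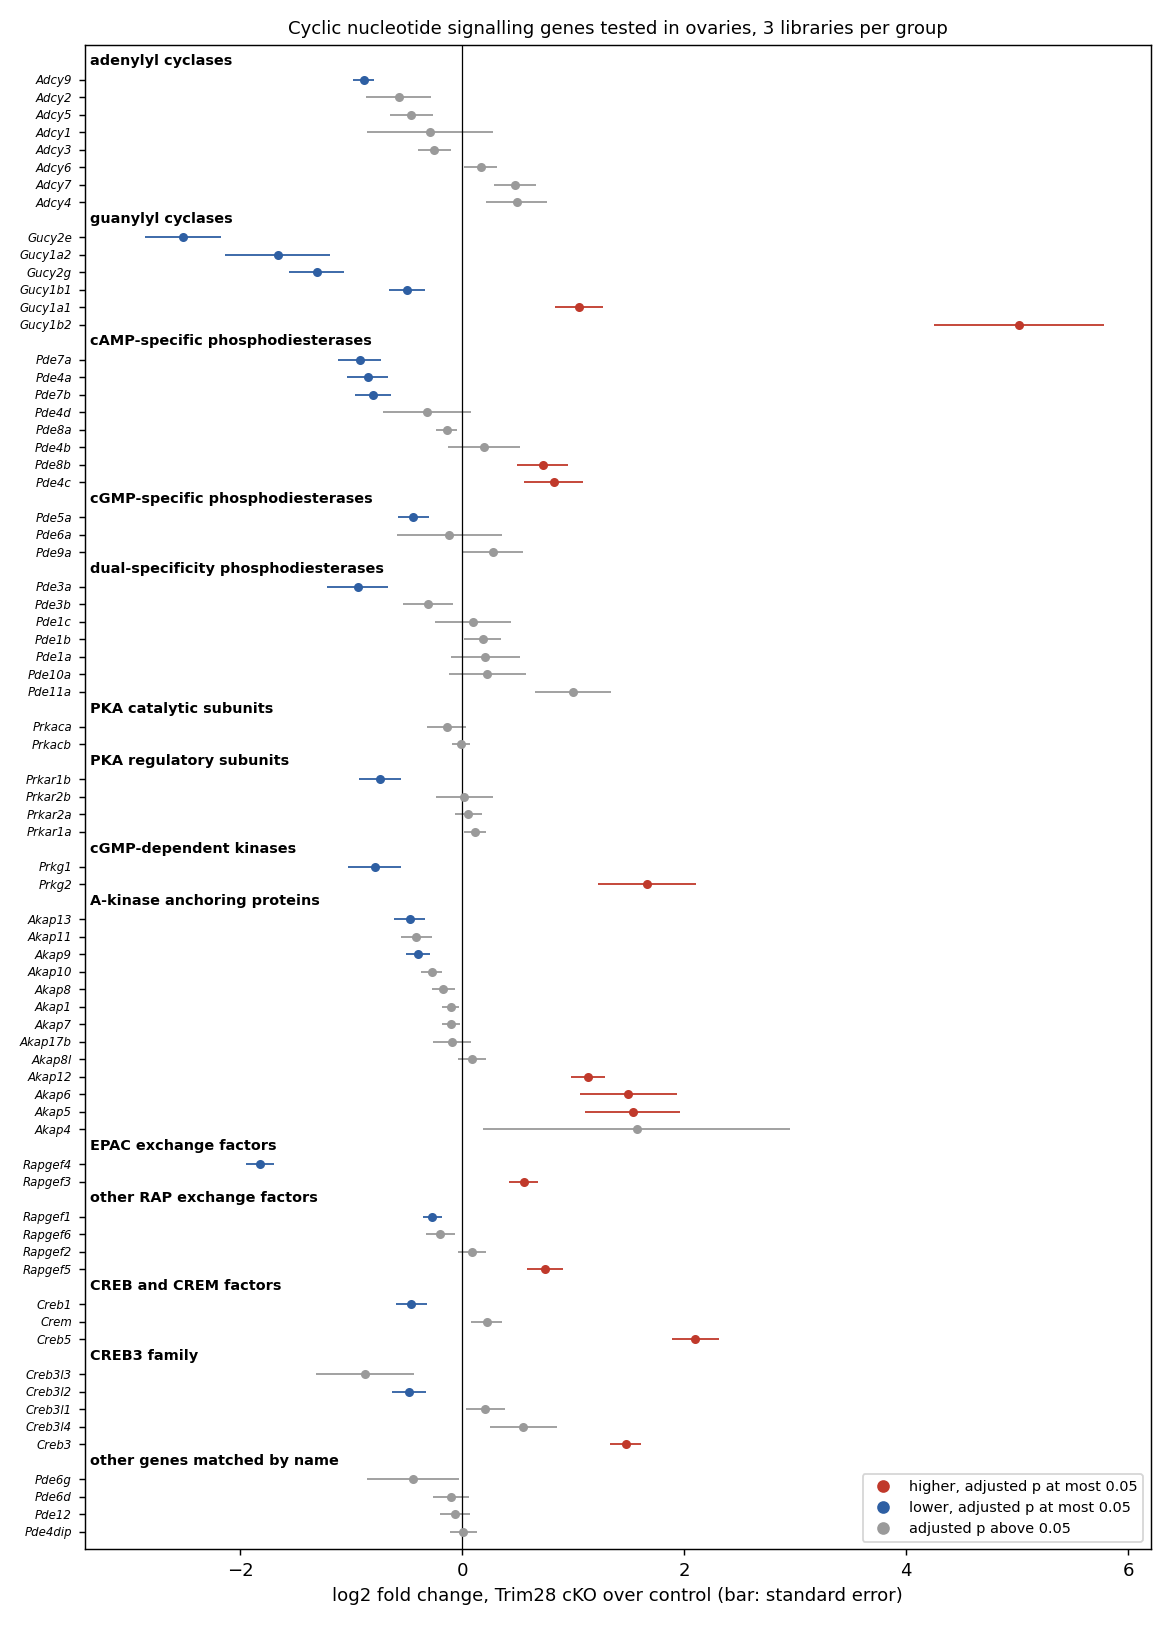
Log2 fold change (Trim28 cKO over control, x axis) of the 71 tested members, grouped by family (y axis), with bars for the standard error and colour for the call. All 6 tested guanylyl cyclase genes with a *Gucy* symbol were called, 2 higher and 4 lower, where 37% of all genes were called. The calls of *Gucy1b1* and *Gucy1a2* were lost in 9 and 5 of 13 alternative fits. Of 8 adenylyl cyclases 7 were not called, where 63% of all genes were not.

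All 6 tested guanylyl cyclase genes with a *Gucy* symbol were called, 2 higher and 4 lower, where 37% of all genes were called. Soluble guanylyl cyclase, the receptor for nitric oxide, is a pair of an alpha and a beta subunit. *Gucy1a1*, which encodes the alpha1 subunit (chr3:82092427-82145789), had 97.8, 102 and 93.1 CPM in controls and 136, 255 and 218 CPM in Trim28 cKO ovaries, a 2.08-fold rise (log2 fold change 1.06, SE 0.22, adjusted p = 0.00893). The lowest Trim28 cKO library lay above the highest control. Its partner *Gucy1b1*, which encodes the beta1 subunit that binds haem, had 40.0, 42.7 and 32.9 CPM in controls and 22.9, 26.8 and 32.3 CPM in the cKO (log2 fold change -0.49, SE 0.16, adjusted p = 0.0482). The lowest control lay just above the highest Trim28 cKO library, and this call was lost in 9 of 13 alternative fits, with adjusted p between 0.0501 and 0.136; among them were those without control library 1 or 2 (0.136 and 0.130) and without Trim28 cKO library 1 or 2 (0.117 and 0.118). The ratio of *Gucy1a1* to *Gucy1b1* counts within a library was 2.44, 2.38 and 2.83 in controls and 5.92, 9.51 and 6.74 in Trim28 cKO ovaries. The ratios did not overlap (mean 2.55 ± 0.25 and 7.39 ± 1.88, SD, n = 3, two-sided exact permutation p = 0.1, the smallest that 3 against 3 libraries allow). Since each gene alone held the groups apart, in opposite directions, this outcome was fixed in advance and adds no support.

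The remaining soluble subunits were rare. *Gucy1b2*, for the beta2 subunit, had 2, 0 and 2 counts in the control libraries and 16, 84 and 64 counts in Trim28 cKO libraries (log2 fold change 5.01, SE 0.77, adjusted p = 0.00281). With so few control counts the size of this fold change depends on the prior count of the fit. *Gucy1a2*, for the alpha2 subunit, fell from 114, 40 and 94 counts to 10, 28 and 53 counts, which is a log2 fold change of -1.66 in scaled values (SE 0.47, adjusted p = 0.0303). The *Gucy1a2* call was lost without control library 1 or 3 (adjusted p = 0.101 and 0.0635) and without Trim28 cKO library 1 or 2 (0.0538 and 0.0864). The membrane cyclases with a *Gucy* symbol carried few reads too (the natriuretic peptide receptors *Npr1* and *Npr2* are given further below). *Gucy2e*, known from the retina, had 1.26, 2.04 and 1.24 CPM in controls and 0.256, 0.274 and 0.251 CPM in the cKO (log2 fold change -2.51, SE 0.34, adjusted p = 0.00177). *Gucy2g*, a membrane cyclase known from rodent olfactory cells, had 2.31, 2.12 and 2.79 CPM in controls and 0.898, 0.982 and 1.03 CPM in the cKO (log2 fold change -1.31, SE 0.25, adjusted p = 0.0067). For both genes all Trim28 cKO values lay below all controls, and both calls were kept in every alternative fit.

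**Figure D2:**
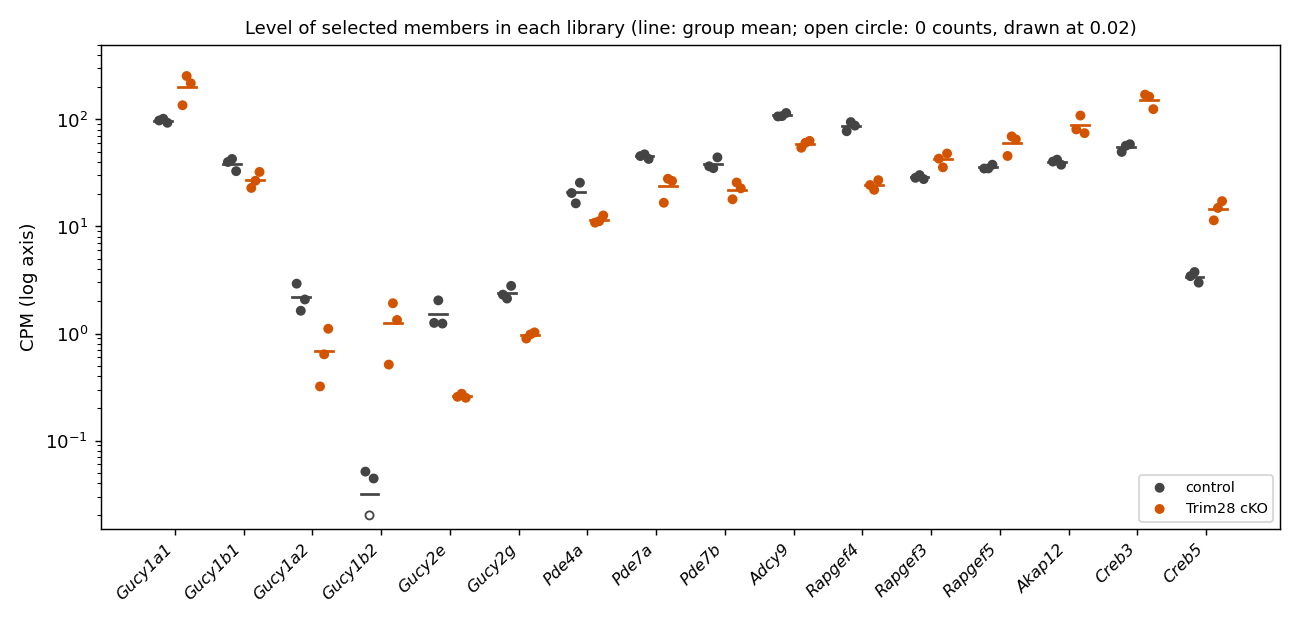
CPM (log axis) of 16 members in each control library (grey) and each Trim28 cKO library (orange), with lines at the group means; a library with 0 counts is drawn as an open circle at 0.02. *Rapgef4* sits at 77.6 to 94.5 CPM in controls and 22.0 to 27.1 CPM in Trim28 cKO, while *Creb5* sits at 2.99 to 3.76 and 11.4 to 17.3 CPM.

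Adenylyl cyclases, which make cAMP, moved little. Of 8 tested genes 1 was called, where 37% of all genes were. *Adcy9*, an isoform that is only weakly stimulated by forskolin (chr16:4287529-4420498), had 107, 108 and 115 CPM in controls and 54.4, 60.5 and 63.1 CPM in Trim28 cKO ovaries. The groups were far apart next to their spread (log2 fold change -0.89, SE 0.093, adjusted p = 0.000686), and the call was kept in all 13 alternative fits. *Adcy6*, an isoform inhibited by calcium, had the highest level per kb of the family, with 148, 181 and 146 CPM in controls and 157, 214 and 164 CPM in Trim28 cKO ovaries. Its values overlapped and it was not called (log2 fold change 0.17, SE 0.15, adjusted p = 0.416). The other 6 tested cyclases had log2 fold changes between -0.57 and 0.49, none called. The summed level of the family per kb of transcript was 111 ± 3.44 in controls and 110 ± 14.4 in Trim28 cKO ovaries (CPM per kb, SD, n = 3, exact permutation p = 0.9).

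Among the cAMP-specific phosphodiesterases 3 of 8 were lower and 2 higher. *Pde7a*, a high-affinity cAMP phosphodiesterase (chr3:19223108-19311322), had 45.5, 47.2 and 42.8 CPM in controls and 16.7, 27.9 and 26.7 CPM in the cKO (log2 fold change -0.92, SE 0.19, adjusted p = 0.01). Its paralog *Pde7b* had 36.5, 35.1 and 44.2 CPM in controls and 18.0, 25.8 and 22.7 CPM in the cKO (log2 fold change -0.80, SE 0.16, adjusted p = 0.0088). *Pde4a*, of the rolipram-sensitive family, had 20.5, 16.5 and 25.6 CPM in controls and 10.9, 11.2 and 12.7 CPM in the cKO (log2 fold change -0.85, SE 0.18, adjusted p = 0.0113). In each of these genes all Trim28 cKO libraries lay below all controls, and the 3 calls were kept in all alternative fits.

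The called increases in this family were lost in most fits that left out 1 library, though the log2 fold changes in those fits stayed positive. *Pde8b*, a high-affinity enzyme found in steroidogenic cells, had 17.4, 30.7 and 19.7 CPM in controls and 31.7, 36.8 and 43.3 CPM in the cKO (log2 fold change 0.72, SE 0.23, adjusted p = 0.0444). Control library 2 reached almost the lowest Trim28 cKO library, and the call was lost without control library 1 or 3 (adjusted p = 0.132 and 0.128) and without each Trim28 cKO library in turn (0.0551, 0.0883 and 0.121). *Pde4c* rose from 1.15, 1.10 and 0.907 CPM to 2.15, 1.58 and 1.88 CPM (log2 fold change 0.82, SE 0.27, adjusted p = 0.0464), and its call was lost whichever library was left out, with adjusted p between 0.0621 and 0.135. *Pde8a* had the highest level per kb of the family and overlapped between genotypes, with 91.2, 97.9 and 85.6 CPM in controls and 79.8, 80.9 and 88.7 CPM in the cKO (log2 fold change -0.14, SE 0.093, adjusted p = 0.276). The count ratio of *Pde8b* to *Pde8a* was 0.191, 0.313 and 0.230 in controls and 0.397, 0.455 and 0.488 in Trim28 cKO ovaries (exact permutation p = 0.1, the smallest possible).

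The phosphodiesterases that break down cGMP, or both nucleotides, gave 2 calls among 10 tested genes, both lower. *Pde5a*, the cGMP phosphodiesterase of smooth muscle and the target of sildenafil, had 105, 122 and 88.7 CPM in controls and 85.2, 72.2 and 75.6 CPM in the cKO (log2 fold change -0.44, SE 0.14, adjusted p = 0.0408). The lowest control lay just above the highest Trim28 cKO library, and the call was lost without control library 1 or 2 (adjusted p = 0.112 and 0.101) and without Trim28 cKO library 2 or 3 (0.114 and 0.109). *Pde3a*, the enzyme that breaks down cAMP in oocytes and is inhibited by cGMP, had 36.6, 36.4 and 29.4 CPM in controls and 10.8, 18.5 and 24 CPM in the cKO (log2 fold change -0.94, SE 0.27, adjusted p = 0.0335). It shared 5.82% of its exon bases with the antisense gene *Gm28523*, and the call was lost without any 1 control library (adjusted p = 0.0947, 0.0842 and 0.0509 in order) or without Trim28 cKO library 2 (0.0775). Beside these genes, 9 of 10 oocyte markers were lower, and of 10 smooth muscle and pericyte markers 6 were lower and 1 was higher. Their part was not tested. *Pde1a*, stimulated by calcium and calmodulin, had the highest level per kb of the dual-specificity enzymes. It had 48.9, 24.9 and 61.5 CPM in controls and 59.4, 55.1 and 42.0 CPM in Trim28 cKO ovaries, with no call (log2 fold change 0.21, SE 0.31, adjusted p = 0.635).

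The core subunits of PKA stayed near their control level. *Prkar1a*, the regulatory subunit lost in Carney complex in humans, had 512, 532 and 495 CPM in controls and 538, 581 and 549 CPM in Trim28 cKO ovaries. The Trim28 cKO values were all above the controls, but by little, and the gene was not called (log2 fold change 0.12, SE 0.099, adjusted p = 0.389). *Prkar2b*, the subunit that follicle-stimulating hormone raises in rat granulosa cells, had 501, 545 and 456 CPM in controls and 309, 640 and 573 CPM in the cKO (log2 fold change 0.020, SE 0.26, adjusted p = 0.958). Trim28 cKO library 1 was the lowest of all 6, and the other Trim28 cKO libraries were the highest. The catalytic subunit *Prkaca* had 115, 101 and 147 CPM in controls and 131, 105 and 94.9 CPM in the cKO (log2 fold change -0.14, SE 0.17, adjusted p = 0.569), and *Prkacb* moved by a log2 fold change of -0.0097 (SE 0.084, adjusted p = 0.938). Only *Prkar1b*, a regulatory subunit best known from neurons, was called in the PKA holoenzyme. It had 22.2, 27.2 and 17.9 CPM in controls and 11.7, 13.4 and 15.1 CPM in the cKO (log2 fold change -0.74, SE 0.19, adjusted p = 0.0199). The *Prkar1b* call was lost without control library 1 or 2 (adjusted p = 0.0599 and 0.0533) or Trim28 cKO library 1 or 2 (0.0577 and 0.0551), and 8.95% of its exon bases are shared with *Gm15672*.

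The promoter of *Prkar1a* is shown because it holds a cAMP response element (CRE), the palindrome that CREB family factors bind. In capitals are the CRE (TGACGTCA) and its partial sites (the first 5 bases of it, TGACG, or CGTCA on the other strand), and the window runs from 250 bases before to 50 bases after a RefSeq start site in GRCm38.p6.
Prkar1a chr11:109650699-109650998 (+ strand): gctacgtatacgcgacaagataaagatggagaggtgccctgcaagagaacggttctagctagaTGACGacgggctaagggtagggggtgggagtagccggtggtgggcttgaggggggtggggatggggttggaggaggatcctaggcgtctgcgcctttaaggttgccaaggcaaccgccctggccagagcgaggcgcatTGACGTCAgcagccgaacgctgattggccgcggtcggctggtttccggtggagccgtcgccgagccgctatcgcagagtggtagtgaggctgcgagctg
The first base of the CRE lies 49 bases before the start site of this window. *Prkar1a* has 6 RefSeq windows, and the one printed was picked because its CRE lies before the start. The same CRE lies 38 bases after the start site of another window. Of 68 members with a RefSeq promoter window, 2 held a CRE (2.94%), *Prkar1a* and *Creb5*, against 2.03% of 27025 genes. A partial site was found in 25 of 68 members (36.8%) and in 23% of all genes. A gene was counted if any of its windows held the site, and windows per gene were not matched between members and all genes. These matches describe letters, not binding.

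The cGMP-dependent kinases moved in opposite directions. *Prkg1*, the kinase of smooth muscle relaxation, had 6.77, 5.67 and 6.59 CPM in controls and 2.69, 4.09 and 4.25 CPM in the cKO (log2 fold change -0.79, SE 0.24, adjusted p = 0.0379). *Prkg2*, the membrane-bound kinase needed for growth of long bones in the mouse, had 2.46, 1.92 and 1.59 CPM in controls and 3.27, 10.3 and 5.38 CPM in the cKO (log2 fold change 1.67, SE 0.44, adjusted p = 0.0233). Neither pair of groups overlapped. The *Prkg1* call was lost whichever library was left out (adjusted p between 0.0544 and 0.116), and the *Prkg2* call without control library 2 or 3 (0.0655 and 0.0747) or Trim28 cKO library 2 (0.0528). The ratio of *Prkg2* to *Prkg1* counts was 0.364, 0.338 and 0.242 in controls and 1.21, 2.52 and 1.27 in Trim28 cKO ovaries (exact permutation p = 0.1, the smallest possible). With both genes already apart in opposite directions, the ratio had to separate and adds no support. Of the markers of smooth muscle and pericytes, where *Prkg1* and *Pde5a* are known to act, 6 of 10 were lower in the same libraries, 1 was higher and 3 were not called, and their part was not tested.

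**Figure D3:**
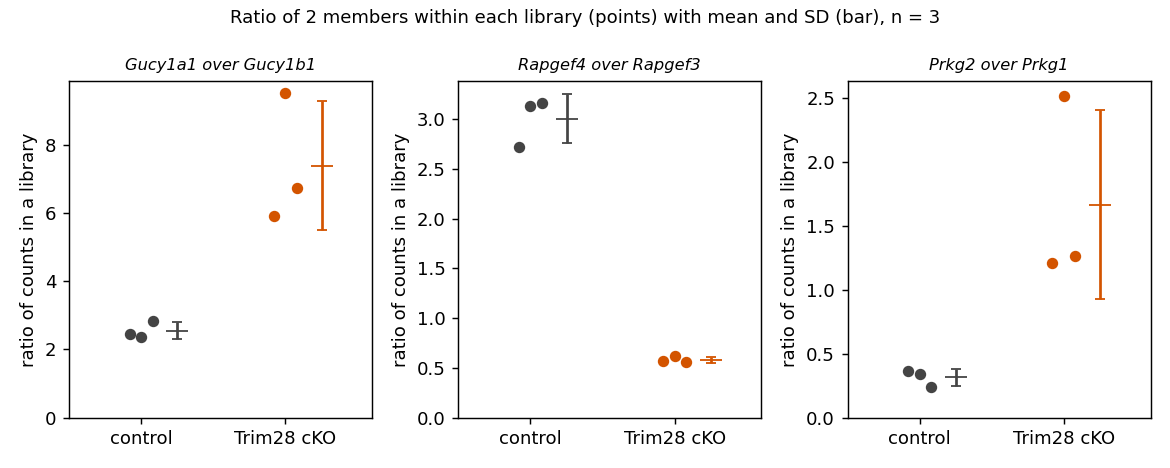
Ratio of the counts of 2 members within each library (y axis, from 0) in the 3 control and 3 Trim28 cKO libraries (points), with mean and SD (bars). The ratio of *Rapgef4* to *Rapgef3* fell from 2.72 to 3.16 in controls to 0.564 to 0.616 in Trim28 cKO, and the ratios of *Gucy1a1* to *Gucy1b1* and of *Prkg2* to *Prkg1* rose. The genes of each pair were already apart in opposite directions, so the ratios describe and do not test.

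Of the AKAPs, 3 of 13 tested genes were higher and 2 lower. *Akap12*, or gravin, which tethers PKA and protein kinase C at the membrane (chr10:4266380-4359470), had 40.4, 42.1 and 37.8 CPM in controls and 80.7, 109 and 74.5 CPM in Trim28 cKO ovaries. This is a 2.20-fold rise (log2 fold change 1.13, SE 0.15, adjusted p = 0.00176), and the call was kept in all 13 alternative fits. *Akap5*, which brings PKA to synapses and to beta-adrenergic receptors, had 2.95, 2.25 and 3.41 CPM in controls and 7.63, 13.3 and 4.12 CPM in the cKO (log2 fold change 1.53, SE 0.43, adjusted p = 0.0285). *Akap6*, which anchors PKA at the nuclear envelope of muscle cells, had 0.975, 1.47 and 1.66 CPM in controls and 3.30, 6.12 and 2.18 CPM in the cKO (log2 fold change 1.5, SE 0.43, adjusted p = 0.0327). In both genes Trim28 cKO library 2 was the highest and library 3 the lowest of its group. Leaving out any 1 control library ended the *Akap5* call (adjusted p = 0.0806, 0.0840 and 0.0578 in order), as did leaving out Trim28 cKO library 1 or 2 (0.0566 and 0.0714). The *Akap6* call ended without any 1 control library (0.105, 0.0732 and 0.0600) and without Trim28 cKO library 1 or 2 (0.0544 and 0.0875). With all 6 libraries both calls were also lost in limma-voom (adjusted p = 0.0713 for *Akap5* and 0.0540 for *Akap6*) and with a replicate block (0.0810 and 0.0588).

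Large scaffolds were among the lower AKAPs. *Akap13* had 228, 182 and 192 CPM in controls and 122, 162 and 150 CPM in the cKO (log2 fold change -0.47, SE 0.14, adjusted p = 0.0352). *Akap9*, the scaffold of the centrosome and Golgi, had 160, 158 and 144 CPM in controls and 103, 125 and 123 CPM in the cKO (log2 fold change -0.40, SE 0.11, adjusted p = 0.0243). Both pairs of groups were apart by modest amounts. Leaving out control library 1 or 3 or Trim28 cKO library 1 or 3 ended the *Akap13* call (adjusted p = 0.114, 0.0640, 0.0689 and 0.0747), and leaving out control library 1 or 2 ended the *Akap9* call (0.0870 and 0.0633). The other 8 tested AKAPs had log2 fold changes from -0.41 to 1.57, the highest being the sperm gene *Akap4*, with counts of 14, 6 and 0 in controls and 0, 62 and 14 in Trim28 cKO libraries and no call (adjusted p = 0.41).

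The EPAC genes moved in opposite directions. *Rapgef4*, encoding EPAC2 (chr2:71981240-72257474), had 77.6, 94.5 and 87.6 CPM in controls and 24.4, 22.0 and 27.1 CPM in Trim28 cKO ovaries. All Trim28 cKO libraries lay far below all controls, a 3.53-fold fall (log2 fold change -1.82, SE 0.12, adjusted p = 0.000196) kept in all 13 alternative fits. *Rapgef3*, encoding EPAC1 (chr15:97744770-97767972), had 28.5, 30.2 and 27.7 CPM in controls and 43.1, 35.7 and 48.0 CPM in Trim28 cKO ovaries. The groups did not overlap (log2 fold change 0.55, SE 0.13, adjusted p = 0.0142), but the call was lost without control library 1 or 3 (adjusted p = 0.0591 and 0.0540). The count ratio of *Rapgef4* to *Rapgef3* was 2.72, 3.13 and 3.16 in controls and 0.567, 0.616 and 0.564 in Trim28 cKO ovaries (mean 3.00 ± 0.24 and 0.582 ± 0.030, SD, n = 3, exact permutation p = 0.1, the smallest possible). This separation too followed from the opposite moves of the 2 genes and adds no support. Per kb of transcript, *Rapgef4* made up 77.1% ± 1.49 of the EPAC message in controls and 39.6% ± 1.20 in Trim28 cKO ovaries (SD, n = 3).

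Antisense genes lie over both EPAC loci. *Rapgef3os2*, which shares 5.54% of the exon bases of *Rapgef3* on the opposite strand, had 4, 0 and 5 counts in controls and 30, 18 and 29 counts in Trim28 cKO libraries. These counts are small beside the 740 to 2297 counts of *Rapgef3* itself. Whether reads were counted by strand is not stated in the sources used here. The start regions of the EPAC genes are shown to set their partial sites side by side, in capitals as above.
Rapgef3 chr15:97767617-97767916 (- strand): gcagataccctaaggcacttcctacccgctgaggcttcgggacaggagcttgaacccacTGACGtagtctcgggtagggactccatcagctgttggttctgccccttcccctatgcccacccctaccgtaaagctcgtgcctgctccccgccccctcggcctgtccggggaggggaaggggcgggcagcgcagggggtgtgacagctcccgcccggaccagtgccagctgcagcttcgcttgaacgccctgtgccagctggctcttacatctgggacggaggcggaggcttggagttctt
Rapgef4 chr2:71980965-71981264 (+ strand): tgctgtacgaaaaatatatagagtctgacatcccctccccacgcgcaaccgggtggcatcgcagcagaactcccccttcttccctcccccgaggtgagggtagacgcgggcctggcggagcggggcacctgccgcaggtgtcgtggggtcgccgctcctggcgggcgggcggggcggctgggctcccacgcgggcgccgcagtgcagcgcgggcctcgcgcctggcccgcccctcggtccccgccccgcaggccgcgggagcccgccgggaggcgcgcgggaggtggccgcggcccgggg
The *Rapgef3* window held 1 partial site and the *Rapgef4* window none, and neither held a CRE.

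Of the 4 RAP exchange factors outside the EPAC pair, 1 was higher and 1 lower. *Rapgef5*, which is related to the EPAC proteins but does not bind cAMP, had 34.8, 34.9 and 37.8 CPM in controls and 45.6, 69.5 and 65.2 CPM in Trim28 cKO ovaries. All Trim28 cKO libraries were above all controls (log2 fold change 0.75, SE 0.16, adjusted p = 0.0115), and the call was kept in all 13 alternative fits. *Rapgef1*, an activator of RAP1 downstream of tyrosine kinases, fell by 0.27 on the log2 scale (SE 0.086, adjusted p = 0.0456), and this call was lost whichever library was left out (adjusted p between 0.0639 and 0.120).

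CREB and CREM factors, which carry the cAMP signal to promoters, changed in 2 of 3 cases. *Creb5*, a CRE-binding factor of the ATF2 group (chr6:53287270-53700376), had 3.44, 3.76 and 2.99 CPM in controls and 11.4, 14.9 and 17.3 CPM in Trim28 cKO ovaries. The lowest Trim28 cKO library lay far above the highest control, and the 4.29-fold rise (log2 fold change 2.10, SE 0.21, adjusted p = 0.000608) was kept in all 13 alternative fits. Its promoter window is shown because it is the other one with a CRE, in capitals.
Creb5 chr6:53287053-53287352 (+ strand): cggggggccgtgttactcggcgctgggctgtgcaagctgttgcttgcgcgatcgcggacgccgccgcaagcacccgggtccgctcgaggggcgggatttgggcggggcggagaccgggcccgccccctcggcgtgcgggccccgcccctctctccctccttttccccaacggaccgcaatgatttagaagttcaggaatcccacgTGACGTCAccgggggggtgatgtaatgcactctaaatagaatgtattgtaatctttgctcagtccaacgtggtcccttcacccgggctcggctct
The first base of the CRE lies 45 bases before a RefSeq start site in GRCm38.p6. *Creb1*, the main PKA substrate among these factors, had 111, 116 and 102 CPM in controls and 65.1, 90.9 and 83.4 CPM in Trim28 cKO ovaries. This is a log2 fold change of -0.46 (SE 0.14, adjusted p = 0.0357), and the call was lost without any 1 control library (adjusted p = 0.0968, 0.0926 and 0.0532 in order) or without Trim28 cKO library 3 (0.0708). *Crem*, the modulator that drives spermatid genes in testis, overlapped between groups, with 18.9, 15.9 and 18.4 CPM in controls and 20.4, 23.4 and 18.3 CPM in the cKO (log2 fold change 0.22, SE 0.14, adjusted p = 0.258).

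The CREB3 family sits in the endoplasmic reticulum membrane and is released by cleavage. *Creb3*, also called Luman (chr4:43562332-43567060), had 49.7, 56.8 and 58.7 CPM in controls and 171, 163 and 125 CPM in Trim28 cKO ovaries. No Trim28 cKO library came near the controls (2.78-fold, log2 fold change 1.47, SE 0.14, adjusted p = 0.000532), and the call was kept in all 13 alternative fits. *Creb3* shares 15.2% of its exon bases with *Tln1* and 5.61% with *Gba2*, both on the opposite strand. *Tln1* had 13087 to 30849 counts per library, and what share of the *Creb3* counts could come from it was not tested. *Creb3l2*, a factor for secretory capacity, had 295, 376 and 270 CPM in controls and 194, 238 and 244 CPM in the cKO (log2 fold change -0.48, SE 0.16, adjusted p = 0.049). That call was lost without control library 1 or 2 (adjusted p = 0.0918 and 0.116) and without each Trim28 cKO library in turn (0.119, 0.0851 and 0.0755). With every library it was also lost in edgeR with DESeq2 size factors (0.0526), a stricter filter (0.0517) or a replicate block (0.0632). The other 3 CREB3 genes were not called.

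At the level of whole families, none of 14 summed levels passed adjustment (CPM per kb of the deposited median transcript length, exact permutation tests, smallest possible p = 0.1, Benjamini-Hochberg p = 0.28 for the lowest). For 5 of the 14 families the 3 control sums and the 3 Trim28 cKO sums did not overlap. Among single genes, 52.8% of all those tested did not overlap. EPAC message was lower, at 162 ± 13.3 CPM per kb in controls and 89.4 ± 11.6 in Trim28 cKO ovaries (log2 ratio -0.85). cAMP-specific phosphodiesterases were at 211 ± 7.28 and 169 ± 16.4 CPM per kb (log2 ratio -0.32) and cGMP-specific ones at 23.0 ± 3.72 and 17.7 ± 1.46 CPM per kb (log2 ratio -0.38). AKAPs were at 713 ± 34.6 and 600 ± 46.1 CPM per kb (log2 ratio -0.25) and the CREB3 family at 188 ± 17.8 and 318 ± 35.4 CPM per kb (log2 ratio 0.76). The median transcript length includes short transcripts, and with the summed exon length of GENCODE M21 the log2 ratio of AKAPs was -0.033 and that of the CREB3 family 0.46. By that length the AKAP sums overlapped (exact permutation p = 0.7). In summed CPM the CREB3 ratio was 0.054. For PKA the length also set the order of subunits, since *Prkar1a* made up 65.9% ± 1.01 of the regulatory message in controls by median transcript length and 43.9% ± 1.24 by summed exon length, where *Prkar2b* made up 50.6% ± 1.26 (SD, n = 3).

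Among 78 other genes listed for the pathway, 76 had values here and 71 were tested. Of these, 21 were higher (29.6%, against 20.2% of all genes) and 15 lower (21.1%, against 16.8%). Among protein-coding genes alone 21.7% were higher and 18.1% lower. All 3 PKA inhibitors, small proteins that bind the free catalytic subunit, were higher. *Pkia* had 23.3, 33.4 and 30.2 CPM in controls and 66.6, 74.4 and 76.7 CPM in the cKO (log2 fold change 1.33, SE 0.15, adjusted p = 0.000844). *Pkib* had 1.54, 1.43 and 1.26 CPM in controls and 10.7, 6.87 and 12.2 CPM in the cKO (log2 fold change 2.82, SE 0.28, adjusted p = 0.000567), and *Pkig* rose by a log2 fold change of 0.90 (SE 0.12, adjusted p = 0.00177). The inhibitors summed to 57.8 to 68.3 CPM in controls and 142 to 149 CPM in Trim28 cKO ovaries, while no catalytic subunit was called. *Sphkap*, which anchors type I PKA, rose from 8, 4 and 1 counts to 185, 913 and 862 counts (log2 fold change 6.89, SE 0.76, adjusted p = 0.000815), a change whose size depends on the prior count. Of the other AKAPs without that symbol, *Rab32* (log2 fold change 1.84) and *Ezr* (1.71) were higher and *Synm* (-2.47) and *Nbea* (-1.06) lower.

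**Figure D4:**
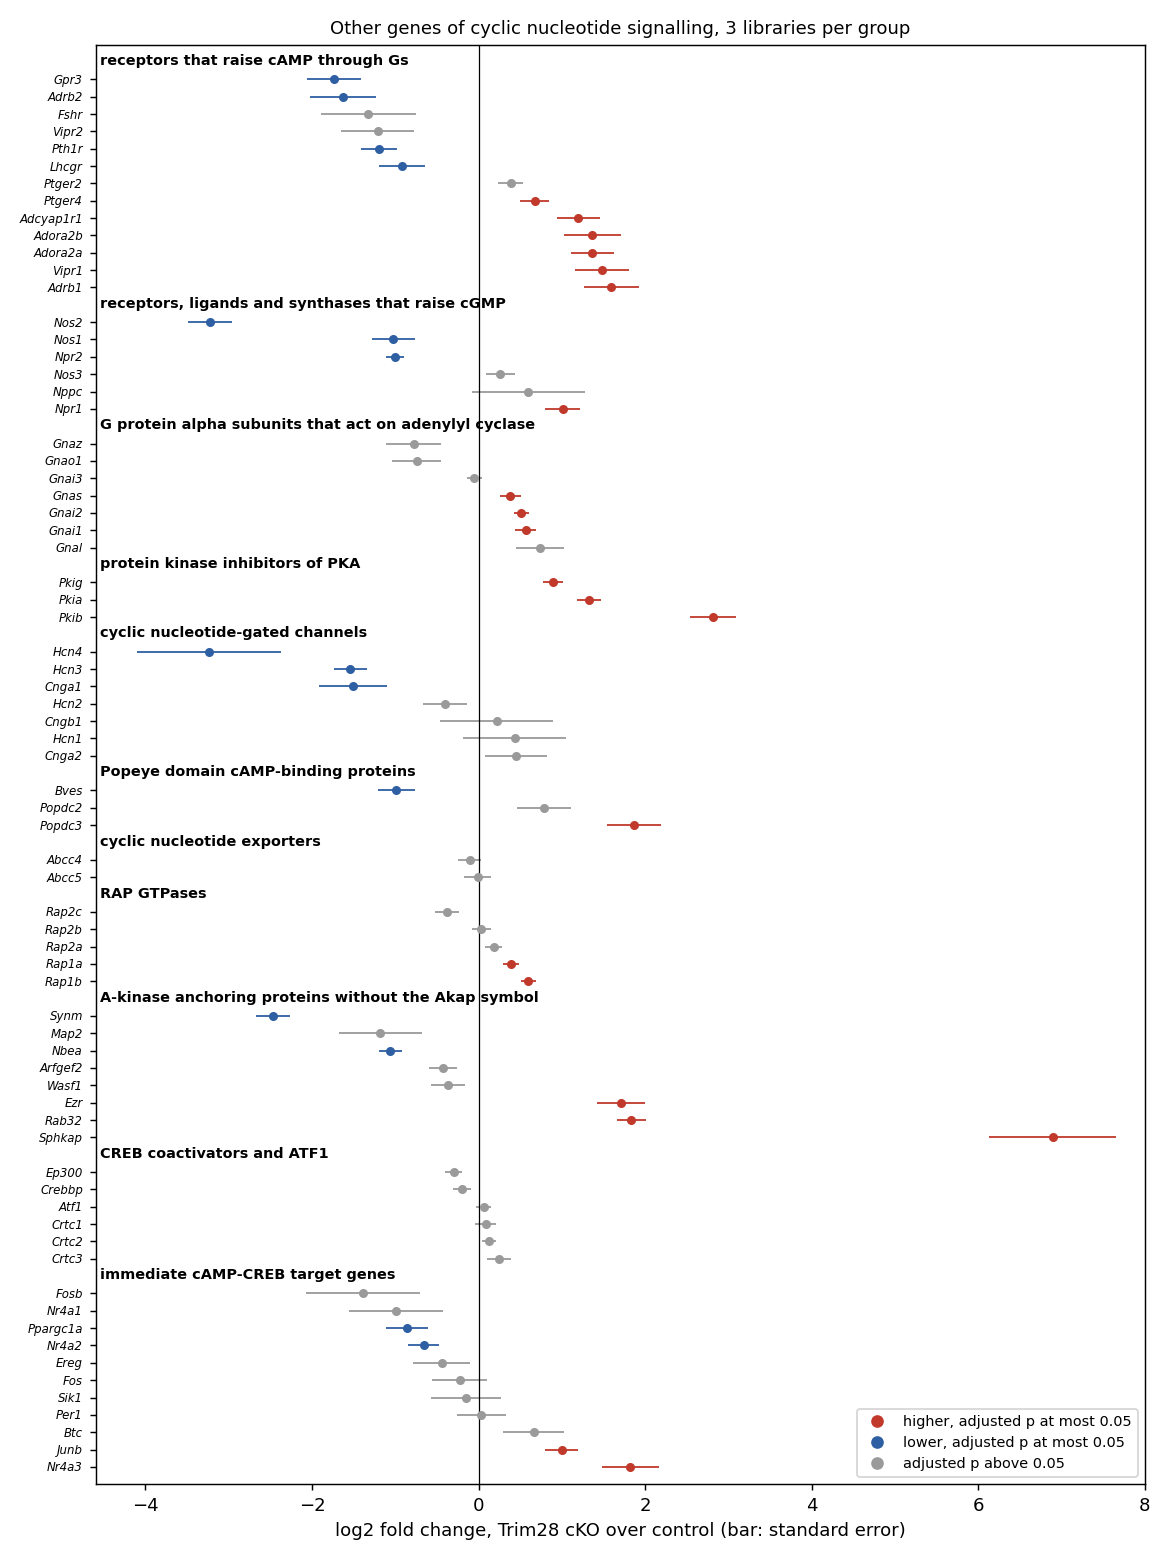
Log2 fold change (Trim28 cKO over control, x axis, bars for the standard error) of the 71 tested genes of the pathway that the name rule did not pick, grouped by role (y axis) and coloured by call. All 3 PKA inhibitors were higher, none of the 6 CREB coactivators and ATF1 was called, and *Nos2* was at -3.22.

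Upstream of the cyclases, receptors moved both ways. Of 13 tested receptors that raise cAMP, 6 were higher, including *Adrb1* (log2 fold change 1.6, SE 0.33, adjusted p = 0.00925) and *Vipr1* (1.48, SE 0.33, adjusted p = 0.0118). Another 4 were lower, including *Gpr3*, which keeps cAMP high in oocytes (log2 fold change -1.74, SE 0.33, adjusted p = 0.00658), and *Lhcgr*, the luteinising hormone receptor (-0.92, SE 0.28, adjusted p = 0.0366). The *Lhcgr* call was lost without control library 1 or 3 (adjusted p = 0.0751 and 0.102) or Trim28 cKO library 1 or 2 (0.108 and 0.106). On the cGMP side, *Npr1*, the receptor for atrial natriuretic peptide, had 197, 218 and 196 CPM in controls and 489, 466 and 278 CPM in the cKO (log2 fold change 1.01, SE 0.21, adjusted p = 0.00971). *Npr2*, the receptor for C-type natriuretic peptide on granulosa and cumulus cells, had 164, 198 and 157 CPM in controls and 86.0, 84.3 and 88.8 CPM in the cKO (log2 fold change -1.0, SE 0.11, adjusted p = 0.000746). *Nos2*, the inducible nitric oxide synthase, had 56.7, 91.2 and 54.3 CPM in controls and 5.39, 8.43 and 7.72 CPM in the cKO (log2 fold change -3.22, SE 0.27, adjusted p = 0.000364). The synthase *Nos1* was lower as well (log2 fold change -1.03, SE 0.26, adjusted p = 0.0197), a call lost without control library 1 or Trim28 cKO library 2 or 3 (adjusted p = 0.0563, 0.0582 and 0.0549). The summed level of the 7 measured genes for receptors, ligands and synthases that raise cGMP overlapped, at 449 to 560 CPM in controls and 441 to 626 CPM in Trim28 cKO ovaries.

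Downstream, the RAP proteins that EPAC activates gave 2 calls of 5, both higher, where 37% of all genes were called. *Rap1a* had a log2 fold change of 0.39 (SE 0.10, adjusted p = 0.0211). Its call was lost without control library 2 or 3 (adjusted p = 0.0649 and 0.0672), without Trim28 cKO library 2 (0.0544) and with a replicate block (0.0547). *Rap1b* had 160, 148 and 157 CPM in controls and 216, 245 and 243 CPM in the cKO (log2 fold change 0.60, SE 0.092, adjusted p = 0.00291). Of the 7 tested G protein alpha subunits 3 were higher, and of the 7 tested cyclic nucleotide-gated channels 3 were lower, among them *Hcn3* (log2 fold change -1.54, SE 0.20, adjusted p = 0.00137). Another, *Hcn4*, had 16, 30 and 14 counts in controls and 0, 5 and 3 counts in Trim28 cKO libraries (adjusted p = 0.0245). The *Hcn4* call was lost without control library 2 (0.0662) and without Trim28 cKO library 1 or 3 (0.0512 and 0.0731). Of the 3 Popeye domain proteins, which bind cAMP, *Popdc3* was higher (log2 fold change 1.87) and *Bves* lower (-0.99, a call lost without control library 1, adjusted p = 0.0512), and neither of the 2 cyclic nucleotide exporters was called. No CREB coactivator was called, out of 6 genes with ATF1 included. Of 11 tested immediate targets of cAMP and CREB, 2 were higher (*Nr4a3* and *Junb*, log2 fold changes 1.82 and 1.0) and 2 lower (*Nr4a2* and *Ppargc1a*, -0.66 and -0.86). Leaving out control library 1 or 2 or Trim28 cKO library 2 or 3 ended the *Nr4a2* call (adjusted p = 0.0992, 0.0755, 0.0844 and 0.0727), and leaving out control library 2 or 3 or Trim28 cKO library 1 or 3 ended that of *Ppargc1a* (0.0755, 0.0911, 0.0722 and 0.0921).

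The remaining 12 members had too few counts to be tested, with at most 39 counts and 0.891 CPM in any library. For *Pde2a* and *Akap2* the low counts may understate expression. Of their exon bases 64.3% and 84.4% are shared with *Gm45837* and *Pakap* on the same strand, and counting in union mode leaves out reads that fit both genes. Reads that fall on the unshared bases are still counted, and how many reads were left out was not tested.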

How the data were processed

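Ovaries of 3 control and 3 Trim28 cKO mice were profiled by strand-marked poly(A) RNA-seq with single-end reads. The authors used STAR 2.5.3a for alignment (mm10) and deposited counts per Ensembl 92 gene from htseq-count 0.6.1p1 in union mode, with bcl2fastq 2.17.1.14 also listed in the submitters' processing notes. The deposited table also holds transcript lengths in bases, 12 columns of normalized values and the authors' DESeq2 1.16.1 fold changes and p-values, none of which were used apart from the lengths. In R 4.3.3, edgeR 4.0.16 was run with filterByExpr (minimum count 10, minimum total 15), TMM scaling, robust glmQLFit and glmQLFTest, with Benjamini-Hochberg adjustment. The standard error is the log2 fold change divided by the square root of F. Alternatives were DESeq2 1.42.0, limma-voom 3.58.1, other scalings and filters, a replicate block and leaving out each library. Exon overlaps came from GENCODE M21 (GRCm38), where all 83 members were found, and promoters from RefSeq GRCm38.p6. The fit was tested on simulated data. Figures were drawn with matplotlib 3.10.9.

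The rule for members reads names alone. That rule, the pathway list and the 11 marker lists were set with earlier results of these data known. Named genes were *Trim28*, members called beyond a log2 fold change of 1 with a mean of at least 1 CPM, the highest and lowest call and highest level of each family, and up to 2 calls per direction of each pathway list. The ratios of 2 genes, *Gucy1b1*, *Pde4a*, *Pde7b*, *Pde8b*, *Prkar2b*, *Prkacb*, *Crem*, *Akap4*, *Pkig*, *Lhcgr*, *Npr2*, *Ezr* and *Des* were chosen after their values were seen. P-values measure the spread between these 3 libraries per group. No replicate pair agreed within sampling noise (chi-square 29.4 to 89.4 times its degrees of freedom).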

Additional observations from a re-analysis of the deposited data

How the results depend on the processing

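Higher members numbered 12 and lower members 18. At an adjusted p of at most 0.01 there were 5 and 5, and 4 lower members lay beyond a log2 fold change of 1. Leaving out 1 library gave 7 to 10 higher and 7 to 13 lower members. Over all genes it gave 2801 to 3649 higher and 2039 to 2753 lower, against 3832 and 3189 with every library. The count of all genes at 0.01 is not given here. Of the other pathway genes 21 were higher (13 beyond a log2 fold change of 1, 17 to 23 with a library left out) and 15 lower (7 at 0.01, 9 to 13 with a library left out). Of the 30 calls, DESeq2 kept 30 and limma-voom 27. The replicate numbers did not pair the libraries: same-numbered deviations correlated at -0.070, 0.059 and -0.17. A replicate block left 8 members higher and 9 lower (3162 higher and 2339 lower over all genes). Not every library correlated best with its own number.

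Changes of sign concerned values that were not called. The log2 ratio of the summed dual-specificity phosphodiesterases was 0.048 per kb and -0.071 in CPM, and that of the RAP exchange factors outside EPAC was 0.025 per kb, -0.020 in CPM and -0.078 with summed exon length. With a library left out the ratios ranged from -0.092 to 0.090 for adenylyl cyclases, -0.13 to 0.16 for dual-specificity phosphodiesterases, -0.16 to 0.0043 for PKA catalytic and -0.018 to 0.13 for PKA regulatory subunits, -0.076 to 0.55 for cGMP-dependent kinases and -0.047 to 0.13 for those RAP exchange factors. The log2 fold change of Pde1a ranged from -0.086 (without control library 2) to 0.49, and the log2 fold change of Prkaca from -0.28 to 0.022 (without control library 3). The log2 fold change of Prkar2b was -0.027 by library size alone, -0.061 with limma-voom and -0.041 with the replicate block, and -0.17 to 0.28 with a library left out. Likewise the log2 fold change of Prkacb ranged from -0.044 to 0.039 and the log2 fold change of Akap4 from -0.26 (without Trim28 cKO library 2) to 2.49. The cause was not tested. Without TMM the median of all genes moved to -0.051. Low genes such as *Gucy1b2* rest on few counts.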
